A study of Homo sapiens with 2 samples.

Results

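The 44 genes described here encode the autophagy machinery and its cargo receptors, from the kinases that start an autophagosome to the proteins that join it to the lysosome. They were chosen by name, and all 44 were found among the 60616 genes listed for HSC-3 cells, an established line of human tongue squamous cell carcinoma. RNA was sequenced from 1 culture given the vehicle, 0.1% DMSO, for a time that the labels do not give, and from 1 culture given 1 µM FIN56 for 48 h, a concentration that the study calls sublethal. FIN56 triggers ferroptosis, an iron-dependent cell death by lipid peroxidation, and lowers the protein level of the lipid peroxidase GPX4. Both cultures grew in DMEM with serum, and the labels name no genetic change in either. With 1 library per condition nothing below can be set against the spread between cultures, an effect of FIN56 and a difference between cultures cannot be told apart, and p-values are not given.

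In macroautophagy, a double membrane closes around cytoplasm and fuses with a lysosome, where the contents are digested. The ULK1 kinase complex starts the process, a phosphatidylinositol 3-kinase marks the membrane, lipid transfer proteins extend it, and a conjugation system joins ubiquitin-like ATG8 proteins to its lipids. Cargo receptors bind both ubiquitinated cargo and ATG8 proteins. Autophagy can feed ferroptosis by digesting ferritin, which releases iron, and it has been linked to the loss of GPX4 under FIN56. The comparison therefore asks whether transcripts of this machinery differed between the libraries. Transcript levels do not measure autophagic flux.

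The libraries held 70184517 (DMSO) and 73062209 (FIN56) expected counts, which are RSEM estimates that divide a read among the genes it fits. Levels are given as FPKM, which is scaled for depth and transcript length, and the fold change is the FPKM in FIN56 over that in DMSO. Beside it stands the ratio of expected counts scaled by library totals, with a 95% Clopper-Pearson interval that covers counting error only. The 8 squamous epithelial markers (KRT5, KRT14, KRT17, KRT6A, TP63, EPCAM, CDH1 and DSP) were at an FPKM of 43.8 or more in both libraries. PTPRC and CD3E of the leukocyte list and COL1A2 of the fibroblast list had no counts in either library. COL1A1 of the fibroblast list did have counts, 919 (DMSO) and 562 (FIN56). Its FPKM values were 4.25 and 2.19, a ratio of 0.515. PDGFRA and PDGFRB, from the same list, were at an FPKM of 0.2 or less in both libraries. The endothelial list summed to an FPKM of 0.08 in each library, the fibroblast list to 4.61 and 2.40, and the leukocyte list to 57.3 and 24.6, all of it CD68, which also encodes a lysosomal membrane protein. In bulk RNA, fewer cells of a type and less RNA per cell cannot be told apart.

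Few autophagy genes were past a fold change of 1.5 in either direction, which was also true of well expressed genes in general. Detected here means an FPKM above 0 in each library, and expressed means an FPKM of 1 or more in each. Of the 44 genes 43 were detected, and among them only ULK2, a kinase that starts autophagy, reached a fold change of 1.5. No member was at 1/1.5 or less. Over all 24454 detected genes, 14.7% reached 1.5 and 17.3% were at 1/1.5 or less. Many of those genes were weakly expressed. With at least 10 expected counts in each library, which all 43 members had, the shares were 7.62% and 11.1%, and among the 12638 expressed genes they were 3.87% and 6.77%. The 41 members that were expressed held 0 genes past either threshold, since ULK2 had an FPKM of 0.99 with DMSO. TFEB was the other detected member below that floor, at 0.99 with FIN56. At the shares of the expressed genes few of 41 genes would be past a threshold, so this count does not set the members apart.

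Most members were slightly higher with FIN56. Over the 43 members the median fold change was 1.11, a log2 value of 0.15, against a log2 median of 0.03 over all expressed genes. By FPKM 28 members were higher and 15 lower, and 53.5% of the expressed genes were higher. The counting interval lay above 1 for 23 members, below 1 for 13 and across 1 for 7. Among the expressed genes it lay above 1 for 38% and below 1 for 35.9%. The interval does not hold the difference between cultures given the same treatment, which is not known here. Between 5 scalings (FPKM, TPM, library totals, edgeR TMM and DESeq2 size factors), 27 members were higher under every scaling, 13 lower under every scaling, and TFEB, TFE3 and MITF changed direction. The scalings are not independent checks. Apart from rounding, TPM ratios differ from FPKM ratios by a constant factor. The count-based ratios differ from each other in the same way, so a ratio well away from 1 keeps its direction among them.

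**Figure D1:**
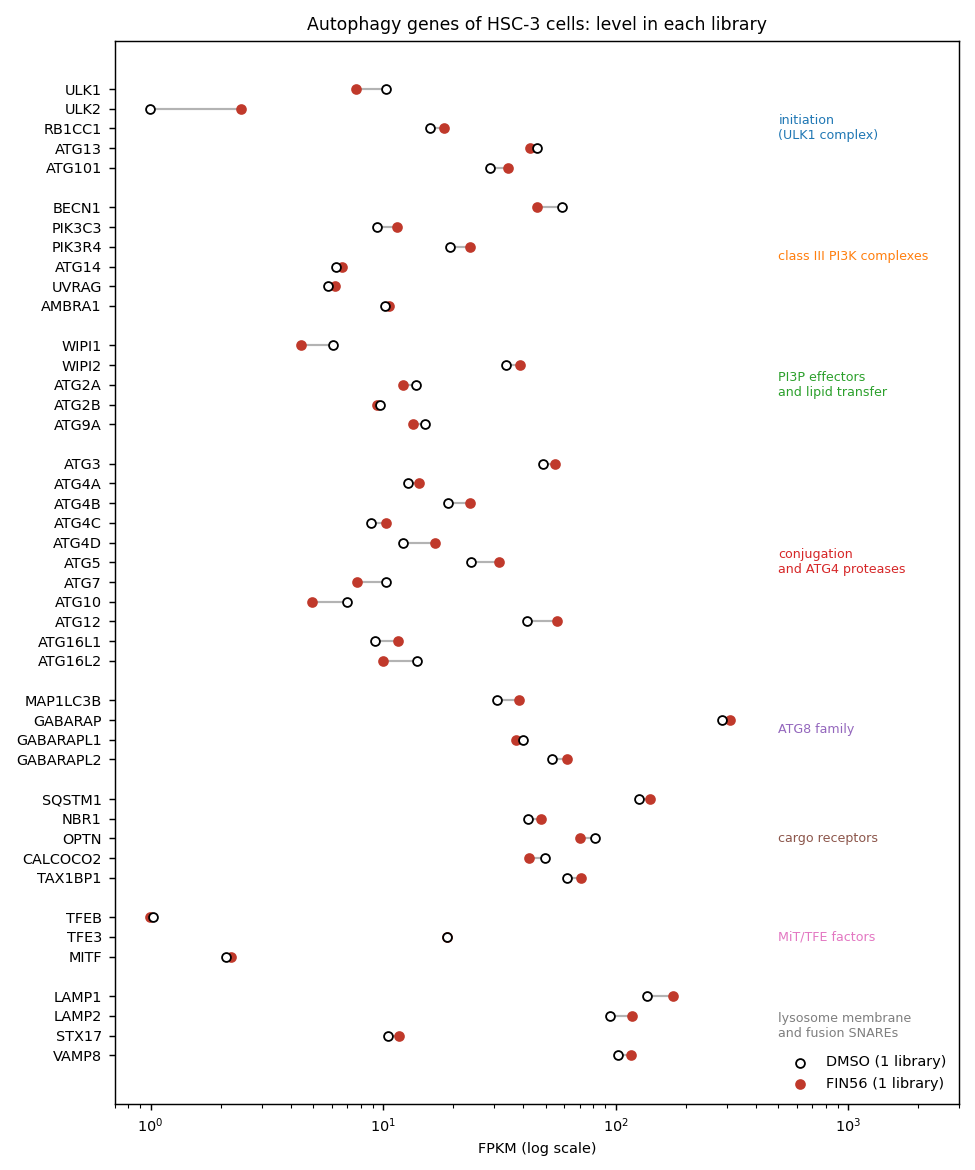
FPKM of each autophagy gene (log scale) with DMSO (open circles) and FIN56 (filled circles), 1 library each, grouped by role; MAP1LC3A, at 0 in both, is not drawn. ULK2 shows the widest gap, from 0.99 to 2.46, and GABARAP the highest level, 286 and 311.

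Levels differed between members far more than between libraries. From the lowest to the highest of the 43 detected members, TPM ran from 1.49 to 427 with DMSO and from 1.52 to 475 with FIN56, with medians of 28.1 and 28.6. The plot of levels by role shows the cargo receptors, the ATG8 proteins and the lysosomal membrane proteins at the upper end, and ULK2, TFEB and MITF at the lower end in both libraries.

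In the initiation complex, the kinase paralogues ULK1 and ULK2 differed in opposite directions. ULK2 (ENSG00000083290, chr17:19770829-19867936, minus strand, GRCh38) had 368 expected counts and an FPKM of 0.99 with DMSO, and 652 and 2.46 with FIN56. Its fold change was 2.48 by FPKM, and its count ratio was 1.70 (95% counting interval 1.495 to 1.94). ULK1 (ENSG00000177169, chr12:131894622-131923150, plus strand) had 3143 expected counts and an FPKM of 10.3 with DMSO, and 2521 and 7.65 with FIN56, a fold change of 0.741 and a count ratio of 0.771 (0.731 to 0.812). As a share of their summed TPM, ULK2 made up 8.80% with DMSO and 24.3% with FIN56. The sum itself was 16.9 TPM with DMSO and 15.5 with FIN56, so ULK1 was the more abundant kinase transcript in both libraries.

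The gap between the FPKM ratio and the count ratio of ULK2 lies in the transcript length that RSEM used. The length implied by its deposited count and FPKM was 5296 bases with DMSO and 3628 with FIN56, a ratio of 0.685. The share of ULK2 in the summed TPM carries the same difference in length. By counts the ratios were 1.70 for ULK2 and 0.771 for ULK1. The coding transcripts of ULK2 in GENCODE release 44 run from 594 to 9149 bases. Such a length is an estimate from the mix of transcripts that the reads of a library fit, and the transcripts themselves were not analysed here. Of the 43 members, 5 had an implied length that differed by over 10% between the libraries, which is 11.6%, against 13.4% of the expressed genes. Besides ULK2 these were BECN1 (0.872), ATG10 (0.896), ATG4D (0.897) and PIK3C3 (1.12). ULK2 had whole expected counts and no exon shared with another gene in the annotation.

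The other subunits of the initiation complex differed less. RB1CC1, the scaffold also called FIP200, had FPKM values of 15.9 and 18.2. The interval of its count ratio, 1.03, ran from 0.999 to 1.07. ATG13, the adaptor that joins the kinase to the scaffold, had 45.8 and 42.75. ATG101, which stabilizes ATG13, had 28.9 and 34.5. The scaffold, the adaptor and its partner were thus each more abundant than ULK1 in both libraries on the FPKM scale.

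Among the class III phosphatidylinositol 3-kinase genes, BECN1 was lower and the genes of the catalytic core were higher. BECN1, which encodes the regulatory subunit Beclin 1, had 7092 expected counts and an FPKM of 58.6 with DMSO, and 5029 and 45.8 with FIN56, a fold change of 0.782. Its count ratio was 0.681 (0.657 to 0.706), the second lowest of the members after ATG10. PIK3C3, the catalytic subunit VPS34, had 1111 and 1575 expected counts and FPKM values of 9.42 and 11.45, with a fold change of 1.22 and a count ratio of 1.36 (1.2603 to 1.47). PIK3R4, the kinase-like subunit VPS15 that holds VPS34, had FPKM values of 19.4 and 23.6. The subunits that direct the complex differed little. ATG14, which sends it to forming autophagosomes, had FPKM values of 6.25 and 6.63, UVRAG, which serves later endosomal steps, 5.78 and 6.20, and AMBRA1, a regulator of the complex, 10.2 and 10.6. The counting intervals of ATG14 and UVRAG included 1. The expected counts of BECN1 were not whole numbers, and in the annotation its exons overlap those of CNTD1 and PSME3 on the other strand.

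Of the genes that read phosphatidylinositol 3-phosphate or move lipid to the growing membrane, 4 of 5 were lower with FIN56, by small amounts, under each of the 5 scalings. WIPI1 had 650 and 500 expected counts and FPKM values of 6.08 and 4.45, a fold change of 0.732 and a count ratio of 0.739 (0.656 to 0.832). Its paralogue WIPI2, which recruits the ATG16L1 complex, was higher, with 4918 and 5933 expected counts and FPKM values of 33.9 and 38.8, a fold change of 1.14 and a count ratio of 1.16 (1.116 to 1.204). The lipid transfer proteins ATG2A (13.8 and 12.2) and ATG2B (9.69 and 9.45) and the membrane scramblase ATG9A (15.1 and 13.5) were lower on the FPKM scale. Over the 5 genes the median fold change was 0.893.

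**Figure D2:**
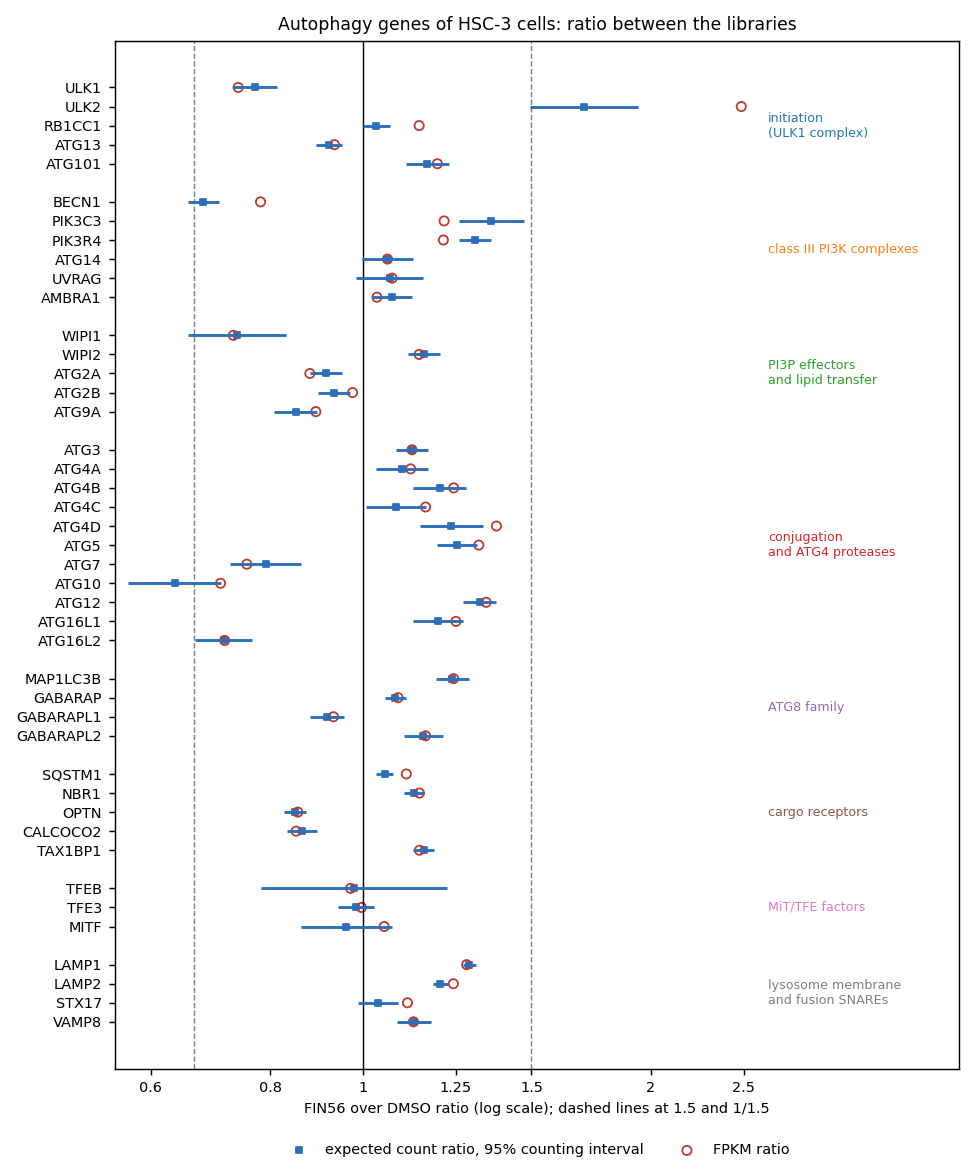
FIN56 over DMSO ratio of each autophagy gene (log scale) by FPKM (open circles) and by expected counts scaled by library totals (squares, with 95% counting intervals), grouped by role. Dashed lines mark 1.5 and 1/1.5, and beyond them lie the FPKM ratio of ULK2, at 2.48, and the count ratios of ULK2, at 1.70, and ATG10, at 0.636.

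In the conjugation system, 8 of 11 genes were higher with FIN56 and ATG7, ATG10 and ATG16L2 were lower, under each of the 5 scalings. Over the 11 genes the median fold change was 1.16. ATG12, the ubiquitin-like protein, had FPKM values of 41.7 and 56.1, and ATG5, to which it is joined, 23.8 and 31.4. ATG3, the enzyme that joins ATG8 proteins to lipid, had 48.6 and 54.6. Enzymes that act early in the joining of ATG12 were among the lower members. ATG7, the activating enzyme of both conjugation branches, had FPKM values of 10.25 and 7.75. ATG10, the enzyme that transfers ATG12 to ATG5, had 807 expected counts and an FPKM of 6.96 with DMSO, and 534 and 4.94 with FIN56, a fold change of 0.710. Its count ratio of 0.636 (0.569 to 0.710) was the lowest of the members and lay beyond 1/1.5, unlike its FPKM ratio. The expected counts of ATG7 and ATG10 were not whole numbers, and their exons overlap those of VGLL4 and of RPS23, a ribosomal protein gene, on the other strand.

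The ATG16L paralogues differed in opposite directions, as the ULK kinases did. ATG16L1, which places the ATG12-ATG5 conjugate on the membrane, had FPKM values of 9.22 and 11.5 with a count ratio of 1.198 (1.13 to 1.27). ATG16L2 had 1974 and 1470 expected counts and FPKM values of 13.99 and 10.03, with a fold change of 0.717 and a count ratio of 0.715 (0.668 to 0.766). The share of ATG16L1 in their summed TPM was 39.7% with DMSO and 53.5% with FIN56, while the sum was 34.7 and 32.95 TPM. The counts of ATG16L2 were not whole, and its exons overlap FCHSD2 on the other strand.

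The ATG4 proteases, which prime ATG8 proteins and release them from lipid, were all higher, in sum from 78.9 TPM with DMSO to 99.3 TPM with FIN56. FPKM values were 12.75 and 14.3 for ATG4A, 19.0 and 23.6 for ATG4B and 8.86 and 10.3 for ATG4C. ATG4D had 1217 and 1566 expected counts and FPKM values of 12.15 and 16.75, a fold change of 1.38 and a count ratio of 1.24 (1.15 to 1.33), the highest FPKM ratio after ULK2. ATG4B held the largest share of their summed TPM, 36% with DMSO and 36.4% with FIN56. The counts of ATG4D were not whole, and its exons overlap KRI1 on the other strand.

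Among the ATG8 genes, GABARAP held most of the transcripts in both libraries. It had 11746 and 13213 expected counts and FPKM values of 286 and 311, or 69.7% and 69.4% of the summed TPM of the family. GABARAPL2 had FPKM values of 53.2 and 61.8. MAP1LC3B, which encodes the LC3B protein used as the usual mark of autophagosomes, had 4335 and 5592 expected counts and FPKM values of 31.0 and 38.5, a fold change of 1.24 and a count ratio of 1.24 (1.19 to 1.29). GABARAPL1 was lower, with 4942 and 4717 expected counts and FPKM values of 39.8 and 37.1, a fold change of 0.931 and a count ratio of 0.917 (0.881 to 0.954). MAP1LC3A, which encodes LC3A, had 0 counts in both libraries. A count of 0 allows up to 3 counts, which in CPM is 0.0427 with DMSO and 0.0411 with FIN56. The summed TPM of the family was 613 with DMSO and 685 with FIN56.

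The cargo receptors were abundant and divided in direction. SQSTM1, the ubiquitin-binding receptor p62 and a target of NRF2, had 18870 and 20688 expected counts and FPKM values of 126 and 140. Its count ratio was 1.05 (1.03 to 1.07), so the transcript of p62 differed little between the libraries. NBR1, a relative of p62, had 12519 and 14731 expected counts and FPKM values of 41.8 and 47.9, a fold change of 1.15 and a count ratio of 1.13 (1.104 to 1.16). TAX1BP1, which with NCOA4 takes part in the turnover of ferritin, had FPKM values of 61.85 and 70.85. OPTN, a receptor of damaged mitochondria and bacteria, was lower, with FPKM values of 81.7 and 69.8. CALCOCO2, the receptor NDP52, had 6588 and 5920 expected counts and FPKM values of 49.8 and 42.4, a fold change of 0.851 and a count ratio of 0.863 (0.833 to 0.894). The summed TPM of the receptors was 540 and 567, and p62 held 34.9% of it with DMSO and 37.7% with FIN56.

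The MiT/TFE transcription factors, which switch on autophagy and lysosome genes when they enter the nucleus, were at similar transcript levels in both libraries. TFEB had 161 and 164 expected counts and FPKM values of 1.02 and 0.99, a fold change of 0.971 and a count ratio of 0.979 (0.782 to 1.22). MITF had 667 expected counts in each library and FPKM values of 2.10 and 2.21, a fold change of 1.05 and a count ratio of 0.961 (0.862 to 1.07). TFE3 had FPKM values of 18.8 and 18.7 and held 85.8% and 85.4% of the summed TPM of the 3 genes, so it was the main family member in these cells. All 3 counting intervals included 1. The interval of TFEB was the widest of these, and it covers counting error only, so its counts do not settle a direction. These factors are controlled mainly by their place in the cell, which RNA does not show.

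The lysosomal membrane and fusion genes were all higher with FIN56, under each of the 5 scalings. LAMP1 (ENSG00000185896) had 25242 expected counts and an FPKM of 137 with DMSO, and 33937 and 176 with FIN56, a fold change of 1.28 and a count ratio of 1.29 (1.27 to 1.31). LAMP2, which also serves chaperone-mediated autophagy, had 20487 and 25690 expected counts and FPKM values of 94.03 and 117. In sum the LAMP genes had 345 TPM with DMSO and 447 with FIN56. The SNARE proteins of the autophagosome and lysosome differed less. VAMP8 had FPKM values of 102 and 116. STX17 had 3193 and 3444 expected counts and FPKM values of 10.5 and 11.7, a fold change of 1.11 and a count ratio of 1.04 (0.987 to 1.09).

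MiT/TFE factors bind the CLEAR element, whose core GTCACGTG holds the E-box CACGTG. RefSeq promoters (GRCh38.p14, 250 bases before to 50 after a start) were found for 38 of the 44 genes, 50 promoters in all. GTCACGTG, read on both strands, was in the promoters of LAMP1, ATG3 and ATG14, 6% of the 50, against 2.40% of all 35116 promoters in the table. The LAMP1 promoter held 6 copies, and the 200 bases before its start, chr13:113297039-113297238 on the plus strand, are shown with 5 of them in capitals because LAMP1 had the most counts of any member. The 60 bases before the start of ATG14, chr14:55411831-55411890 on the minus strand, are shown beside it, with their single copy in capitals, as the promoter of a member with nearly equal levels.
LAMP1: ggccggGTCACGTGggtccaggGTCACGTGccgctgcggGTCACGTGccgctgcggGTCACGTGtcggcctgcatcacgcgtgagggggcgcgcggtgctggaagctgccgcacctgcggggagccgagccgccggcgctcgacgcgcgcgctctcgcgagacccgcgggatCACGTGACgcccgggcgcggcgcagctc
ATG14: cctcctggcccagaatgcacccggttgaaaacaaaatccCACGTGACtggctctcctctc

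The fold changes of the genes with this core were 1.28 for LAMP1, 1.125 for ATG3 and 1.06 for ATG14. CACGTG was in the same 3 promoters (6%, against 7.26% of all promoters), since it lies inside the longer core. TGACNNNGC, the core letters of the antioxidant response element that NRF2 reads, was in the promoters of ATG101, LAMP1, MAP1LC3B and CALCOCO2, 8% of the member promoters against 13.3% of all. A match to these letters is a description of the sequence and not evidence of binding.

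**Figure D3:**
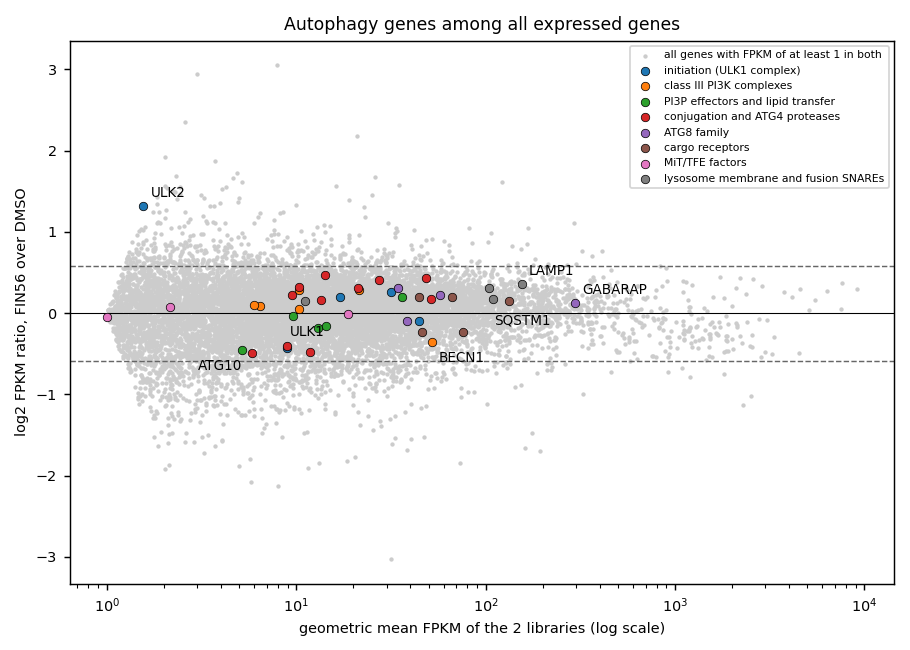
log2 FPKM ratio, FIN56 over DMSO, against the geometric mean FPKM of both libraries (log scale) for the 12638 genes with an FPKM of 1 or more in each library (grey) and for the 43 detected autophagy genes (coloured by role). Dashed lines mark ratios of 1.5 and 1/1.5, and of the autophagy genes ULK2 alone lies outside them.

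In the plot against all expressed genes, the autophagy genes other than ULK2 lie inside the band between the thresholds, which is also where most genes of their level lie. Reads that fit several genes limit some of these values. Expected counts were whole numbers for 26 of the 43 genes, and for the other 17 reads had been divided with another gene. Of those 17, 16 share exon bases with a gene on the other strand in GENCODE release 44, among them BECN1, WIPI1, ATG7, ATG10, ATG12, ATG16L2 and SQSTM1. The labels name a stranded kit, and whether the counting used strand is not given in the sources used here, so reads of such a gene and of its partner may not be told apart. The 26 genes with whole counts had a median log2 fold change of 0.17 and held the 1 gene at 1.5, ULK2.

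Other genes of the pathway were read from 6 lists written from general knowledge of the pathway, with 118 symbols. Earlier results of these data were known when the lists were written. The v-ATPase, the proton pump that acidifies lysosomes, had the highest median of the 6 lists. All 16 of its listed subunit genes were higher with FIN56, under each of the 5 scalings. The counting interval of each lay above 1. Among all expressed genes, 53.5% were higher and 38% had an interval above 1. Of all expressed genes 3.87% reached 1.5. The median fold change of the listed subunits was 1.27 and 1 of them reached 1.5. This was ATP6V1C1, with 5523 and 8189 expected counts and FPKM values of 33.1 and 51.1, a fold change of 1.54, although its count ratio of 1.42 (1.38 to 1.47) did not reach the threshold. The lowest was ATP6V0A1, at 1.03. ATP6V1D (10698 and 15870 expected counts, fold change 1.42) and ATP6V1E1 (9937 and 14866, fold change 1.44) were subunits with high counts, picked after their values were seen.

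Lysosomal hydrolases and membrane proteins shared this direction in part. Of 27 genes, 21 were higher and 6 lower, where 53.5% of all expressed genes were higher. The median fold change was 1.11. None was past either threshold, against 3.87% of the expressed genes at 1.5 or more and 6.77% at 1/1.5 or less. GLA, the alpha-galactosidase, was the lowest at 0.712, from 26.3 and 18.8, but its count ratio was 0.905 (0.858 to 0.955) and its implied length differed 1.27 times. In the fusion machinery 10 of 13 genes were higher, against the same 53.5%, with a median of 1.15. None was past a threshold, against the same 3.87% and 6.77%. The extremes were VPS18, a subunit of the HOPS tethering complex, at 1.40 (5.68 and 7.96), and VPS16, of the same complex, at 0.863 (14.8 and 12.7). The GTCACGTG core was in 17.9% of the 28 promoters of the hydrolase and lysosomal membrane genes, in 26.7% of the 15 of the fusion genes and in 23.1% of the 13 of the v-ATPase genes, against 2.40% of all promoters. Overlapping promoters of VPS11 hold the same site and are counted apart among the fusion genes. The core was in 13.9% of the 36 promoters of the mTORC1 and AMPK list, in 6.67% of the 15 of the further core genes and in 0% of the 20 of the other receptors.

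**Figure D4:**
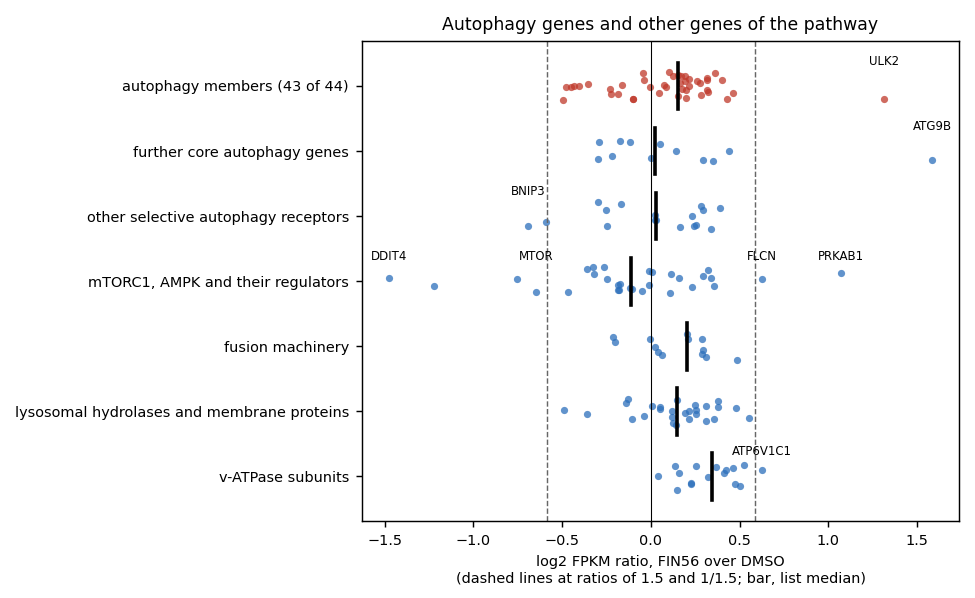
log2 FPKM ratio, FIN56 over DMSO, of the 43 detected autophagy genes (top row) and of the genes of 6 other pathway lists detected in each library. Points are genes, bars are list medians and dashed lines mark ratios of 1.5 and 1/1.5. All 16 listed v-ATPase subunits lie to the right of 0, and the mTORC1 and AMPK list spreads widest to the left.

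The list of mTORC1, AMPK and their regulators, which switch autophagy off and on, is the longest of the 6. Of its 31 genes 30 were detected, and among them 2 reached 1.5 and 4 were at 1/1.5 or less, against 14.7% and 17.3% of all detected genes. Of the list 27 genes were expressed, among them PRKAB1 and FLCN at 1.5 or more and MTOR and DDIT4 at 1/1.5 or less. Over all expressed genes the shares were 3.87% and 6.77%, so the comparison with the background depended on the floor. The calls also depended on the scaling. By counts scaled by library totals, 1 and 5 genes of the list were past the thresholds, against 3305 and 4127 of 24406 genes. FLCN, with a count ratio of 1.42, was then not past 1.5. TSC2, from counts that were not whole, was past 1/1.5 at 0.576, where its fold change by FPKM was 0.722. MTOR, the kinase that holds the ULK1 complex inactive when nutrients are plentiful, had 10250 and 6169 expected counts and FPKM values of 19.95 and 12.7, a fold change of 0.638 and a count ratio of 0.578 (0.560 to 0.597). DDIT4, a stress-induced inhibitor of mTORC1 also called REDD1, had 32404 and 12123 expected counts and FPKM values of 294 and 106, a fold change of 0.359. The expected counts of DDIT4 were not whole numbers. An inhibitor of the kinase and the kinase itself were thus both lower.

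PRKAB1, a regulatory subunit of the energy sensor AMPK, had 1471 and 2814 expected counts and FPKM values of 10.4 and 21.8, a fold change of 2.10 and a count ratio of 1.84 (1.72 to 1.96). The catalytic subunit PRKAA1, picked after its values were seen, had FPKM values of 53.9 and 43.2. FLCN, which acts on the Rag GTPases that hold TFEB and TFE3 in the cytoplasm, had FPKM values of 10.2 and 15.7, a fold change of 1.54 and a count ratio of 1.42 (1.34 to 1.51). SESN3, a sestrin, was at 0.594 from FPKM values of 0.64 and 0.38. DEPTOR, the fourth gene past the lower threshold, rested on 13 and 4 expected counts. The median of this list was a log2 fold change of -0.11, and it changed sign to 0.021 with DESeq2 size factors, so its direction depended on the scaling.

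Among 17 other receptors of selective autophagy, 2 were past the lower threshold and none past the upper, against 17.3% and 14.7% of all detected genes. Of the receptors 16 were expressed, and BNIP3 and NIPSNAP2, the 2 past the lower threshold, were among them. Over all expressed genes the shares were smaller, 6.77% and 3.87%. BNIP3, a receptor of mitochondria and a target of hypoxia signalling, had 15449 and 10075 expected counts and FPKM values of 99.8 and 61.9, a fold change of 0.620 and a count ratio of 0.626 (0.611 to 0.642), from counts that were not whole. NIPSNAP2, a mitochondrial protein that binds ATG8 proteins, had FPKM values of 68.8 and 45.7, a fold change of 0.664. This lay at the edge of the threshold, since its TPM ratio of 0.679 was not past it. Its count ratio was 0.641 (0.620 to 0.662). NCOA4, the receptor that brings ferritin to autophagosomes and so bears on the iron that ferroptosis needs, had 23194 and 21357 expected counts and FPKM values of 97.3 and 86.45. Its fold change of 0.889 and count ratio of 0.885 (0.868 to 0.901) put it slightly lower with FIN56. It lay outside the rule for named genes and was chosen for its role in ferroptosis after its values were seen.

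The further core autophagy genes, 14 symbols on 15 rows because GABARAPL3 is listed on separate rows, were even in direction. By FPKM 6 were higher and 6 lower of the 12 detected, and the gene past a threshold, ATG9B, rested on 5 and 9 expected counts. RUBCN, which encodes the autophagy inhibitor Rubicon, was the highest with at least 100 counts, at 1.36 from FPKM values of 8.72 and 11.8. TECPR1 was the lowest, at 0.812 from 3.46 and 2.81, with a count ratio of 0.662 (0.590 to 0.742).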

How the data were processed

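RNA of 1 DMSO and 1 FIN56 library of HSC-3 cells was sequenced from a stranded mRNA kit per the labels. Per the submitters' processing notes and the methods, which describe the tumor libraries, the authors aligned reads with STAR 2.6.1a to GRCh38 and ran RSEM 1.3.1. The deposited expected counts are not normalized. The authors' FPKM values, deposited with 2 decimals, are per kilobase of effective length and per depth of the library, and the deposited TPM values sum to the same total in each library. The log2 values deposited by the authors are DESeq2 1.26.0 rlog values.

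Ratios were taken for genes whose FPKM was above 0 in each library, with the fold threshold of the study, 1.5. Expected counts were rounded for intervals (Clopper-Pearson, 95%) and for scaling by edgeR 4.0.16 TMM or DESeq2 1.42.0 size factors. Counts within 0.005 of a whole number were called whole. With 1 library per condition no test was possible. Implied transcript length was taken from the expected count, the FPKM and the library total. The intervals cover counting error only, and they take rounded expected counts as independent reads. PCR reads that carry no molecular identifiers are not independent, so the intervals may be too narrow even for counting error. They also leave out the error of dividing reads between genes. Exon overlaps came from GENCODE release 44.

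The members and lists were chosen with earlier results of these data known. All 44 members are named. Full values are given for those past 1.5 or 1/1.5 and for the extremes of each role, and likewise for other lists among genes with at least 100 counts. The count ratio, its interval and the fold threshold were first tested on simulated counts with known fold changes. The other steps were not tested on simulated data. Python 3.11.15, scipy 1.17.1, pandas 2.3.3 and R 4.3.3 were used. Results for some items are not reported here.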

Additional observations from a re-analysis of the deposited data

How the results depend on the processing

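No paired analysis was possible because the conditions hold 1 library each, which also left no replicate to leave out. The count of members at 1.5 or more, 1 by FPKM, was 0 with rlog values, which shrink differences, and 0 with an FPKM of 1 or more in each library, a floor that removes ULK2. The count at 1/1.5 or less, 0 by FPKM, was 1 (ATG10) with expected counts scaled by library totals, by TMM or by DESeq2 size factors. TPM, pseudocounts of 0.1 and 1 FPKM, a threshold of 2, a minimum of 10 counts and the restriction to whole counts left both counts as they were. The median log2 fold change of the members, 0.15, was 0.056 with rlog values and between 0.098 and 0.19 under the other alternatives run. The percent of all genes at 1.5 or more was 14.7, and 7.62 with at least 10 counts in each library or 3.87 with an FPKM of 1 or more. At 1/1.5 or less it was 17.3, and 11.1 or 6.77, as fewer weakly expressed genes enter. No scaling moved the median of all genes by over 0.1 on the log2 scale. Depth limits TFEB most, with the fewest counts of the detected members.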

Other observations

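CD68, listed here as a leukocyte marker, encodes a glycoprotein of the same family as the LAMP proteins. It had 5181 expected counts with DMSO and 2396 with FIN56, and FPKM values of 57.3 and 24.6, a fold change of 0.429. The expected counts of CD68 were not whole numbers. LAMP1 and LAMP2 were higher in the same libraries, at 1.28 and 1.24. PTPRC and CD3E of the same list had no counts in either library. The values are given without an explanation, and CD68 was chosen after its values were seen.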
